A study of Mus musculus with 2 samples.

Results

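Plasmacytoid dendritic cells (pDC) made up 150 of the 17129 cells recovered from healing mouse calvarial defects, 75 of 9036 cells from GA treated mice and 75 of 8093 cells from control mice. They were chosen by their own transcript counts: at least 5 unique molecular identifiers (UMIs, one per captured transcript) of Siglech and at least 2 of Bst2. In addition, the 3 C1q chains summed to under 20 UMIs, S100a8 and S100a9 to under 3% and Col1a1, Col1a2 and Col3a1 to under 1% of the cell's UMIs. Cells held 500 to 140000 UMIs, 200 to 9500 genes and at most 15% mitochondrial UMIs. The study asked whether GA (gambogic amide, a small molecule) aids skull bone repair. Male young adult C57BL/6 mice received intraperitoneal injections of 100 µL of GA, labelled as 1.2 mg/kg in 10% DMSO, or of the 10% DMSO vehicle alone. The study's methods name the strain C57BL/6J and give a higher daily dose than the labels. A round frontal bone defect was made after 24 h of injections, and the defect tissue was dissociated at day 7. Cells of 5 mice were pooled into 1 single-cell RNA library per condition, so the conditions were compared without replicates, no test between them was possible, and every interval covers counting error only.

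pDC are bone marrow derived dendritic cells that recognise viral and self nucleic acids in endosomes through Tlr7 and Tlr9 and can release large amounts of type I interferon. Their identity depends on the E protein transcription factor Tcf4, acting with Irf8, Spib, Runx2 and Bcl11a, and is opposed by Id2 and Zbtb46. They arise from dividing precursors in the marrow, gain Ccr9 and Siglech on maturing, and carry Ly6d and other transcripts shared with the B lineage.

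The GA library held 182949385 UMIs over 9322 barcodes and the control library 214993030 over 8718. pDC contributed 1171744 and 979816 UMIs. The median pDC held 14175 UMIs in GA (4649 to 43700) and 11181 in control (7442 to 55956), against medians of 11267 and 17499 for all cells. Thus pDC were deeper than the average cell in GA and shallower in control, and levels are given as CPM, a gene's UMIs per 1000000 UMIs of the summed cells, unless another unit is named. Their mitochondrial share had a median of 4.22% in GA and 4.69% in control, above the 1.15% and 2.83% of all other cells. At an equal 2000 UMIs per cell, the median pDC showed 1197 genes in GA and 1164 in control, compared with 1045.5 and 1052 in dendritic cells with at least 3 Cd209a UMIs (Cd209a DC). The 2 libraries shared 23 cell barcodes, and 0 pDC barcodes were among them.

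The Siglech limit passed 82 GA and 83 control cells, and the other limits took away 7 and 8 of these. S100 transcripts excluded 6 cells in GA and 2 in control, C1q 1 and 4, collagen 0 and 2, and Bst2 0 and 1, with 1 control cell failing 2 of these limits. Just inside the limit, 14 cells in each library carried 5 to 9 Siglech UMIs. In these, Tcf4 was 2386 and 2553 CPM and Ccr9 70.0 and 337. Just outside it, 8 GA and 4 control cells carried 3 or 4 Siglech UMIs, with Tcf4 at 944 and 2510 and Ccr9 at 19.7 and 18.7 CPM. So the 4 control cells left out had a Tcf4 level like that of the cells just inside.

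As a group, the cells carried pDC transcripts that the rule did not use, while single cells varied. Tcf4 was present in all 75 cells of each library, with 8 to 179 UMIs per cell and a median of 48 in GA, and 7 to 124 with a median of 42 in control. Summed Tcf4 stood at 3328 and 3422 CPM, against 260 and 182 in Cd209a DC and 169 and 281 in all other cells. Irf8, which pDC share with type 1 conventional dendritic cells, was also present in every cell, at 1721 CPM in GA and 2025 in control against 69.7 and 54.7 in all other cells. The lowest Irf8 count of a cell was 1 UMI in GA and 2 in control. Ccr9, the receptor for the gut and thymus chemokine Ccl25, was found in 61 of 75 GA cells (81.3%, exact Clopper-Pearson 95% interval 70.7 to 89.4) and 64 of 75 control cells (85.3%, 75.3 to 92.4). Neutrophils, which do not make Ccr9 and show how far free RNA reaches, carried a Ccr9 UMI in 0.167% of 4782 GA cells and 0.147% of 2035 control cells, at median depths of 7477 and 5655 UMIs. At 2000 UMIs per cell Ccr9 was found in 44.0% and 58.7% of pDC. Ccr9 detection in pDC therefore lay far above that background in both libraries. The rule genes themselves stood at 1297 and 1449 CPM for Siglech and 2332 and 2706 for Bst2.

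Of 6180 genes given 50 or more UMIs by the pDC together, 1254 (20.3%) were more than 2-fold higher in pDC than in all other cells in both libraries, a description of how the cells were picked. Of the pDC lists, 16 of 20 surface and secreted genes, 11 of 14 transcription factors and 15 of 18 other pDC-enriched genes passed that fold. Gm21762 had the highest fold by the smaller of the 2 libraries, while Klk1 was higher in control: pDC were 0.830% and 0.927% of cells but held 92.6% of the Gm21762 UMIs in GA and 92.0% in control, and 86.4% and 93.0% of those of Klk1. For Ccr9 the share was 76.1% and 70.4%, and for the muscle-type cytochrome oxidase subunit Cox6a2 68.1% and 70.4%. Cox6a2 was found in 73 of 75 pDC of each library, at 1335 and 1165 CPM against 4.13 and 2.33 elsewhere. Other leading genes were Klk1 (a kallikrein protease), Grm8 (a glutamate receptor), Havcr1, Atp2a1 (a calcium pump known from muscle), Cd300c, Pacsin1 (an endocytosis adaptor), Upb1, Sh3bgr, Paqr5, Sla2 and the kynurenine pathway enzymes Kmo and Kynu.

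**Figure D1:**
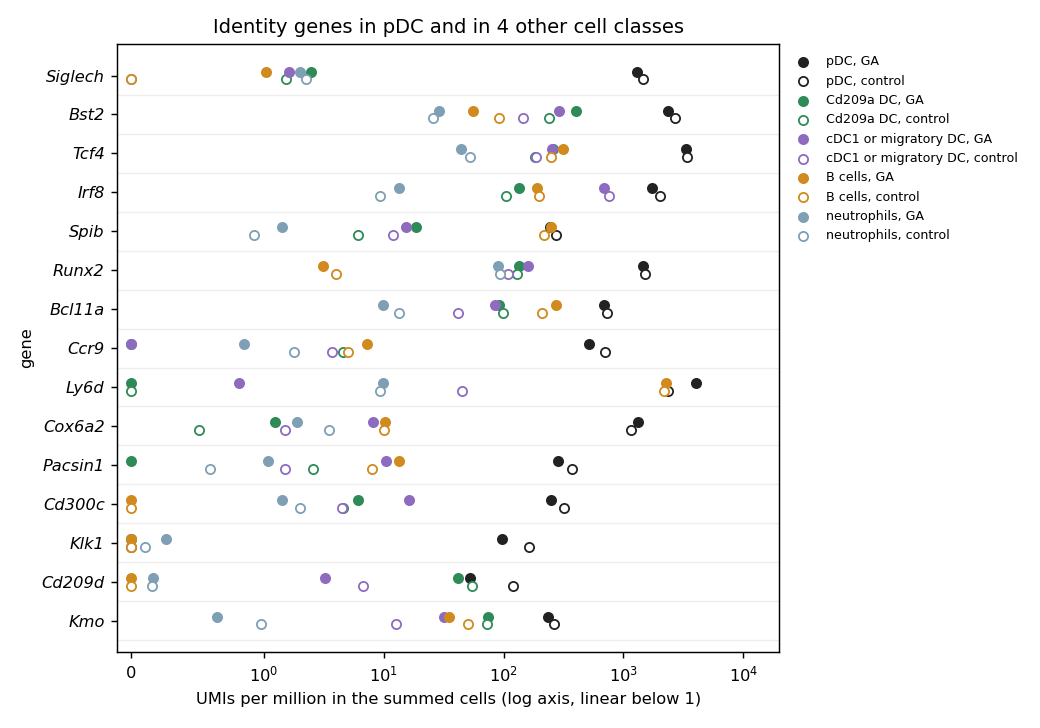
Levels of 15 identity genes (vertical axis) in CPM of the summed cells (horizontal log axis, linear below 1) for pDC, Cd209a DC, type 1 or migratory DC, B cells and neutrophils. Filled points are the GA library and open points the control library. pDC lie farthest right for most genes, while B cells lie close to pDC for Spib and to control pDC for Ly6d, and Cd209a DC lie close to GA pDC for Cd209d.

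Promoter sequence is shown for Siglech, Ccr9 and Cd300c, 3 surface genes from the 20 with the highest fold over other cells, since Tcf4 is an E protein and E proteins bind E-box sequences. RefSeq promoter windows of GRCm38.p6 run from 250 bases before to 50 bases after a RefSeq start site. Siglech lies at chr7:55768178-55778925 on the plus strand, Ccr9 at chr9:123678439-123784330 on the plus strand and Cd300c at chr11:114956116-114969157 on the minus strand (GENCODE vM21 on GRCm38). The windows shown are chr7:55767934-55768233, chr9:123766961-123767260 and chr11:114960458-114960757, each 5′ to 3′ along its gene. Their start sites lie 6, 88772 and 8650 bases downstream of the outermost annotated start of Siglech, Ccr9 and Cd300c, so the last 2 windows are inside the annotated gene. Capitals mark the E-box letters CACCTG or, on the other strand, CAGGTG.
Siglech promoter: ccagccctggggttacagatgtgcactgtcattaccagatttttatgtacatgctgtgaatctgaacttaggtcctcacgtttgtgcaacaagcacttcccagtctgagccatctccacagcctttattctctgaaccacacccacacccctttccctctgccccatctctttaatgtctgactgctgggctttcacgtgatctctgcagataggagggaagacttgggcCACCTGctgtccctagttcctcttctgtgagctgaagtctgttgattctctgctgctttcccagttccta
Ccr9 promoter: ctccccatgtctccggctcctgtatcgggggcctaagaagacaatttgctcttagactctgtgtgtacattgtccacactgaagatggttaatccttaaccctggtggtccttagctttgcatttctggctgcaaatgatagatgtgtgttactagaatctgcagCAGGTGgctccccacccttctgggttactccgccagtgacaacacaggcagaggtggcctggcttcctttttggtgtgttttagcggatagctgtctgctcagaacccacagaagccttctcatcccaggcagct
Cd300c promoter: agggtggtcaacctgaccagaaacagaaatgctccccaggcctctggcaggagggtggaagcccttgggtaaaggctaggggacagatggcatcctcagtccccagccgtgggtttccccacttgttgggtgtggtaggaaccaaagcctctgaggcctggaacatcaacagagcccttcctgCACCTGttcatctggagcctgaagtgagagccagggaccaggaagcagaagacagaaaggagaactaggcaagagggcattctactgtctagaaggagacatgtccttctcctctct
Each window held 1 match, beginning 20, 85 and 67 bases before the start. Of the 20 genes, 14 had an entry in the promoter table, and 9 of these 14 (64.3%) held the E-box letters in at least 1 window: Siglech, Klk1, Grm8, Havcr1, Ccr9, Cd300c, Paqr5, Sla2 and Lrp8os2. Over all genes in the table, 6098 of 27025 (22.6%) did, and of single windows 20.2%. The Ets core letters GGAAGT or ACTTCC, searched the same way with overlaps allowed, were in windows of 5 of the 14 genes (35.7%) against 26.5% of all genes. These counts describe letters in a window of genes chosen for their levels.

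The pDC transcription factors were at much the same level in both libraries. Runx2, known also as the master regulator of osteoblasts, was found in 73 GA and 72 control pDC at 1467 and 1513 CPM, against 134 and 214 in all other cells. Bcl11a stood at 692 and 733, Spib at 242 and 274, Tcf12 at 754 and 806 and Etv6 at 1108 and 956 CPM. The 8 factors listed as opposing the pDC fate summed to 217 and 412 CPM, against 1526 and 1623 in all other cells. Without 3 control pDC with transcripts of other lineages the control sum was 226 CPM. Id2 was found in 14 GA and 17 control cells, Zbtb46 in 8 and 6, and Batf3 in 1 and 0. The most abundant, Cebpb, was found in 32 and 28 cells, and Irf4 was more than 2-fold higher in pDC than in other cells in both libraries (28.2 and 51.0 against 10.9 and 12.6 CPM). Several B lineage transcripts were widespread. Blnk, an adaptor of the pre-B cell receptor, was in 72 and 73 cells, Ighm in 75 and 74, Il7r in 68 of each and the terminal transferase Dntt in 50 and 48. Rag1 and Rag2, the recombinases, together gave 1 UMI in each library, and Igll1 gave 0.

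Markers of other cells ranged from absent to higher in pDC than elsewhere. Conventional dendritic cell markers summed to 597 and 783 CPM against 469 and 401 in all other cells, with Sirpa the most abundant. Of these 12 markers, 4 were more than 2-fold higher in both libraries, where 20.3% of the 6180 genes were. Endothelial markers summed to 478 and 366 CPM against 71.1 and 99.3, most of it Pecam1. In contrast, monocyte and macrophage markers summed to 261 and 674 CPM against 7118 and 8183, and B cell markers to 76.0 and 202 against 936 and 915. Of 10 monocyte and macrophage markers, Adgre1 gave 0 and 2 UMIs and Mrc1 2 and 1. Cd79a was found in 3 GA cells and 1 control cell, and Cd79b in 27 cells of each library. Lyz2 was found in 38 GA and 46 control cells. The microglia genes Sall1 and Fcrls were at 0, which allows up to 2.56 CPM in GA and 3.06 in control, whereas P2ry12 stood at 70.0 and 80.6 in 34 and 33 cells. Xcr1 was at 0. Plasma cell markers summed to 139 and 165 CPM against 395 and 294 in all other cells, with Mzb1 the most abundant. Of these 7 genes, 1 was more than 2-fold higher in both libraries (20.3% of all genes), while Jchain and Tnfrsf17 gave 2 UMIs between them. However, 3 control pDC held much of the B cell, neutrophil and monocyte transcripts. Without them these lists summed to 59.9, 134 and 371 CPM in control, compared with 202, 312 and 674, whereas the endothelial list was at 389 and the conventional dendritic list at 721. The 3 cells were set apart, after the data were seen, by at least 20 Lyz2, 5 Cd79a or 100 H2-Ab1 UMIs. Lists that hold these genes therefore fall without the 3 cells in part by that choice. The first (37359 UMIs) carried 169 of the 229 Lyz2 UMIs, 109 of the 114 Nrg1 UMIs and 97 of the 144 Cebpb UMIs. The second (55956 UMIs, the deepest pDC) carried 322 of the 769 H2-Ab1 UMIs, 59 of the 76 Ccr7 UMIs and 2 of Irf8. The third (18424 UMIs) carried all 42 Cd79a and all 24 Ms4a1 UMIs of the control pDC. No limits of the rule removed such cells, and the automatic doublet call marked 0 pDC, so several results are also given without them.

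pDC formed a similar share of all cells in GA and control, but the answer depended on which cells were counted beside them. They were 0.830% of cells in GA (0.653 to 1.04) and 0.927% in control (0.730 to 1.16), a ratio of 0.896 with an exact conditional binomial interval of 0.642 to 1.25. Neutrophils, with S100a8 and S100a9 at 3% of UMIs or more, were 52.9% of GA cells and 25.1% of control cells. Among the cells under that limit, pDC were 1.76% in GA and 1.24% in control, a ratio of 1.42 (1.02 to 1.99). Among cells with a UMI of Ptprc, which encodes the leukocyte antigen CD45, they were 0.974% and 1.33%, a ratio of 0.734 (0.526 to 1.02). The direction of the ratio thus turned with the denominator. In contrast to the equal 75 and 75 pDC, the other dendritic cells differed in number: 40 Cd209a DC in GA and 113 in control, and 37 and 66 type 1 or migratory DC (Xcr1 and Clec9a, or Ccr7 and Fscn1). Of the 3 dendritic groups together, pDC were 50% in GA (41.7 to 58.3) and 29.9% in control (24.3 to 36.0), intervals that did not overlap.

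Dividing cells were more frequent among the GA pDC. With at least 5 UMIs summed over 18 cell cycle genes, 34 of 75 GA pDC (45.3%, 33.8 to 57.3) and 15 of 75 control pDC (20%, 11.6 to 30.8) were dividing, a ratio of 2.27 (1.20 to 4.48). Thinned to 2000 UMIs per cell with at least 3 such UMIs, the shares were 37.3% (26.4 to 49.3) and 18.7% (10.6 to 29.3). Few cells lay near the limit: 8 GA and 6 control pDC had 3 or 4 cell cycle UMIs, 4 and 1 had 5 to 9, 12 and 2 had 10 to 49, and 18 and 12 had 50 or more. The remaining 33 GA and 54 control pDC had 0 to 2. Among pDC with 5 or more cell cycle UMIs, the libraries thus differed most in the band of 10 to 49 and less at 50 or more. Dividing pDC were deeper than the rest, with medians of 17856 against 12155 UMIs in GA and 16919 against 10652.5 in control.

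The other dendritic cells also had a higher share of dividing cells in GA, while B cells and neutrophils did not. At the thinned depth, 51.4% of type 1 or migratory DC in GA and 13.6% in control were dividing, and 20% (9.05 to 35.6) and 8.85% (4.33 to 15.7) of Cd209a DC, 8 of 40 and 10 of 113 cells, with intervals that overlapped. In B cells the shares were 9.32% and 10.1%, and in neutrophils 10.5% and 11.9%. At whole depth the B cell shares were 8.47% and 12.9%, although the summed cell cycle level of B cells was 2645 CPM in GA and 1595 in control. No test of these differences was possible with 1 library per condition, and whether depth or the pooled animals had a part in them was not tested.

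**Figure D2:**
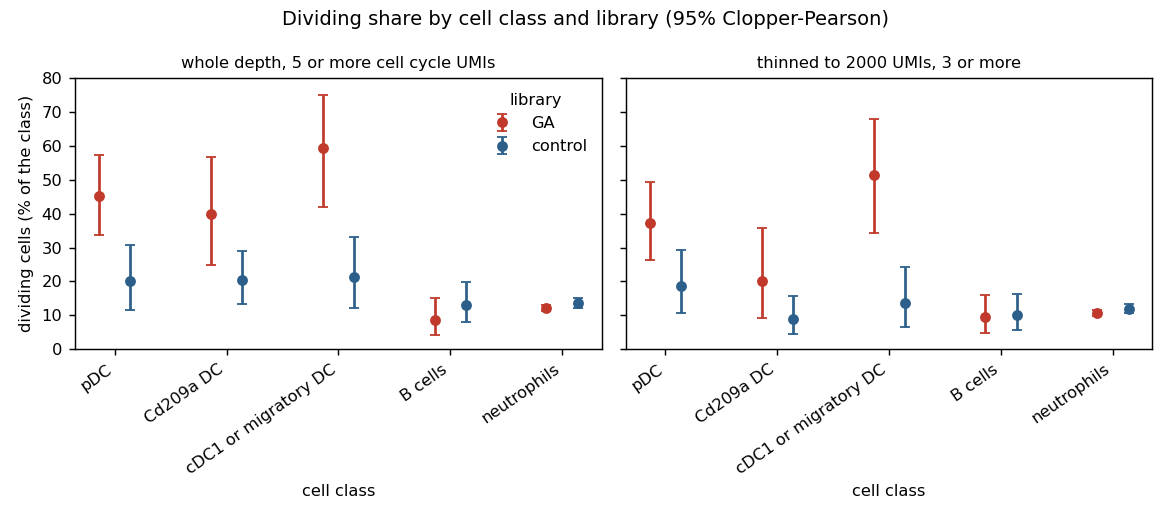
Share of dividing cells (vertical axis, percent of the class) in 5 cell classes, at whole depth with 5 or more cell cycle UMIs (left) and after thinning to 2000 UMIs with 3 or more (right). Points are single libraries and bars 95% Clopper-Pearson intervals for counting error. For pDC the GA point stands at 45.3% and 37.3% and the control point at 20% and 18.7%, while the B cell and neutrophil points of GA lie below those of control.

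Dividing pDC carried less of the mature pDC programme than other pDC, in both libraries. Siglech and Bst2 chose the cells, so Ccr9, which the rule did not use, is described. In GA it was found in 21 of 34 dividing and 40 of 41 other pDC, at 180 and 967 CPM. In control it was found in 9 of 15 and 55 of 60, at 209 and 944. The log2 ratio of dividing to other pDC was -2.43 in GA and -2.17 in control. With 50 or more cell cycle UMIs, Ccr9 stood at 134 and 176 CPM, compared with 1034 and 940 in pDC with 0 to 2. Grm8 (log2 ratios -3.57 and -2.46), Klra17 (-2.28 and -3.37), the lectin Cd209d (-4.27 and -4.78), the UDP-sugar receptor P2ry14 (-2.61 and -2.59), Ly6a (-2.14 and -1.76) and the lipid transfer protein Pltp (-3.41 and -1.86) were likewise lower in dividing pDC.

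Of the 14 pDC transcription factors, 10 were lower in dividing pDC in both libraries and 1 was more than 2-fold lower, with medians of -0.48 in GA and -0.47 in control. Of all 6180 genes 30.3% were lower in both. That factor was Spib, with log2 ratios of -1.33 and -1.81. Tcf4 stood at 2428 in dividing and 4523 CPM in other GA pDC, and at 2156 and 4023 in control, log2 ratios of -0.90 in both. Irf8 had -0.37 and -0.63 and Runx2 -0.12 and -0.40. Some of the 3 control pDC with transcripts of other lineages were among the dividing cells. The 14 factors summed to 10075 CPM in dividing and 14228 in other control pDC, and to 11291 and 14300 without those 3 cells. In GA the sums were 10988 and 14605. Of the 18 surface and secreted genes other than Siglech and Bst2, 14 were lower in dividing pDC in both libraries and 9 were more than 2-fold lower, and of the other pDC-enriched list 17 of 18 and 6. Over all 6180 genes, 202 (3.27%) were more than 2-fold lower and 292 (4.72%) more than 2-fold higher in dividing pDC in both libraries. The survival gene Bcl2 was among the higher ones, at 313 against 59.6 CPM in GA and 257 against 42.1 in control, as were Fabp5, Bex6, Emb and Atp8b4, which like P2ry14 were named after their values were seen. Of the control Fabp5 UMIs, 63.9% lay in 1 cell. The endosomal receptor Tlr7 was lower, at 35.9 against 95.3 in GA and 44.4 against 105 in control.

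**Figure D3:**
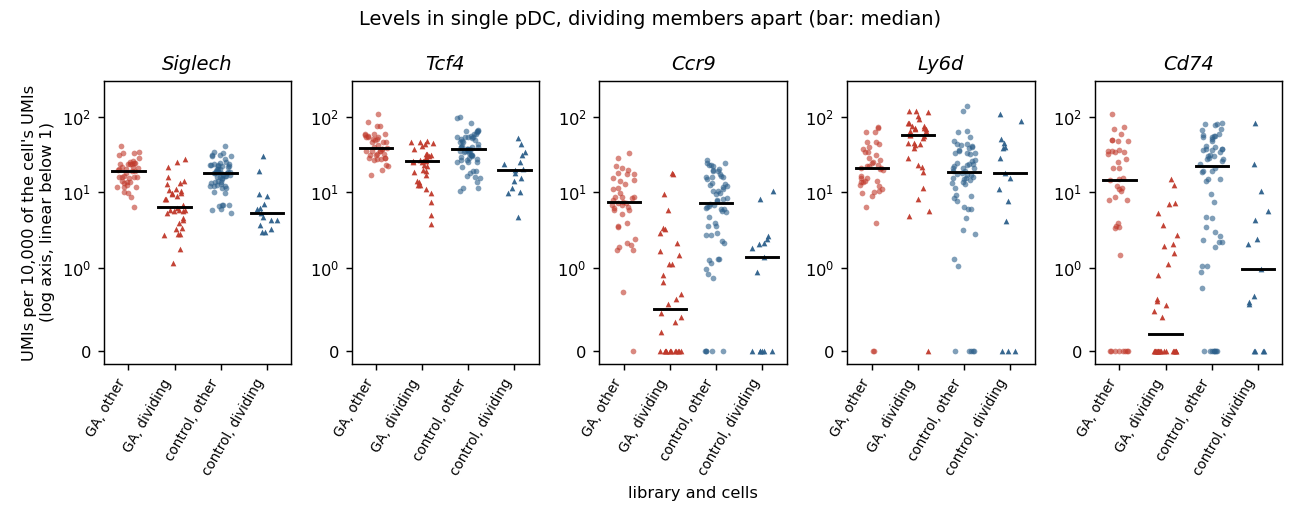
UMIs per 10000 of the cell's UMIs (vertical log axis, linear below 1) of Siglech, Tcf4, Ccr9, Ly6d and Cd74 in single pDC, with dividing members (triangles) apart from the others (circles) in each library, and bars at the medians. Median Ccr9 is 0.511 and 1.40 in dividing and 7.48 and 7.32 in other pDC of GA and control, and Ly6d is high in the dividing cells of GA, with a median of 57.9.

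Between GA and control, the summed pDC differed little for most genes. Of 6180 genes with at least 50 UMIs, 198 (3.2%) differed by more than 2-fold, 122 (1.97%) with the higher level in GA and 76 (1.23%) with the higher level in control. These were, without the 3 mixed control cells, 147 (2.45%) and 42 (0.7%) of 5997. The median log2 ratio of the 8699 genes with at least 20 UMIs was 0.04, and the middle 80% lay between -0.54 and 0.65. Without dividing cells, 41 GA and 60 control pDC remained, and 29 of 4058 genes (0.715%) were past 2-fold higher in GA and 22 (0.542%) in control. The 10 highest ratios held 6 genes of DNA replication, histones or mitosis, led by Hist1h1b (237 and 61.2 CPM, log2 ratio 1.95, 95% interval 1.55 to 2.38), Hist1h4d, Nusap1, Prc1, Cenpp and Clspn. Hist1h1b was found in 12 GA and 8 control cells only.

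Cell cycle genes were higher in GA throughout, 18 of 18, with 9 of them (50%) past 2-fold, against 1.97% of genes with at least 50 UMIs and 4.17% of those with at least 20, and a median log2 ratio of 0.95. The list also set which cells were called dividing. Top2a, the topoisomerase of replicating and mitotic cells, stood at 357 and 162 CPM (log2 ratio 1.14, 0.87 to 1.41), Mki67 at 221 and 109, Stmn1 at 818 and 382 and the helicase subunit Mcm6 at 143 and 57.2. Within dividing pDC alone the median log2 ratio of the list was 0.17, with 11 of 18 genes higher in GA. Without the 3 mixed control cells it was -0.14. Hence cell cycle levels within dividing pDC lay close together in the 2 libraries.

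Ly6d, the lymphoid surface protein of pDC and B cell precursors, was among the 10 most abundant nuclear-encoded, non-ribosomal transcripts of pDC. A single GA cell held 0 to 295 UMIs with a median of 41, and a control cell 0 to 155 with a median of 22, so the ranges overlapped. Summed levels were 4053 and 2360 CPM, a log2 ratio of 0.78 (0.71 to 0.85). The libraries differed most in the dividing cells. There Ly6d stood at 5215 in GA and 2365 in control, against 2512 and 2357 in other pDC, with log2 ratios of 1.14 and 0.09. Without the 3 mixed control cells the ratio in dividing cells was 0.82. Sox4, a factor of early progenitors, was also higher in GA, at 197 and 115 CPM (log2 ratio 0.77), as was Bcl2 at 204 and 111 (0.87). The Bcl2 levels given above for dividing and for other pDC each lay closer together between the libraries.

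MHC class II genes, which present antigen to CD4+ T cells, were lower in GA pDC, but by much less without dividing cells. Of 12 such genes with at least 20 UMIs, 12 were lower in GA and 6 (50%) were past 2-fold, against 3.14% of the 8699 genes with that many UMIs, with a median log2 ratio of -0.84. Without the 3 mixed control cells 9 of 11 were lower and 0 were past 2-fold. Cd74, the invariant chain, was found in 50 GA pDC with a median of 4 UMIs and in 63 control pDC with a median of 17. H2-Ab1 stood at 264 and 785 CPM, a log2 ratio of -1.57, and H2-Eb1 at 154 and 592 (-1.95). Leaving out the 3 mixed control cells gave ratios of -0.88 and -0.72, and that of Cd74 went from -1.11 to -0.81. The single cell described above held 41.9% of the control H2-Ab1 and 57.9% of the H2-Eb1 UMIs. Without the 3 mixed control cells the list's median was -0.57, and without dividing cells -0.16 over the 10 genes with enough UMIs. In other pDC the list summed to 5085 CPM in GA and 5653 in control, whereas dividing GA pDC held 822. Dividing control pDC held 6017 with and 1220 without the 2 mixed cells among them. With every cell kept, H2-Ab1 was found in 6 of 34 dividing GA pDC and 6 of 15 dividing control pDC. In other pDC it was found in 23 of 41 and 39 of 60. The cell with 57.9% of the control H2-Eb1 UMIs was set apart by its own H2-Ab1 count. The weaker differences without the mixed cells therefore follow in part from that choice. Levels in pDC remained far under those of Cd209a DC, where Cd74 stood at 19861 CPM in control against 2360 in pDC.

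The pDC surface and secreted genes were slightly lower in GA, and at close levels once dividing cells were left out. Of 20 such genes 17 were lower, against 45.6% of the 8699 genes, and 3 were past 2-fold (background 3.14%). The median log2 ratio of -0.40 became -0.04 without dividing pDC. Without Siglech and Bst2, which chose the cells, 15 of 18 were lower and the medians were -0.44 and -0.05. Ccr9 was at 518 and 707 CPM in all pDC (log2 ratio -0.45, -0.61 to -0.29) and at 967 and 944 in the others (0.04, -0.14 to 0.21). Ly6c2 kept a lower level in GA outside the dividing cells, 876 and 1219 CPM (-0.48, -0.65 to -0.31), as did Cd209a with 25 and 87 UMIs (-1.40, -2.10 to -0.74) and Cd8a with 24 and 85 UMIs (-1.42, -2.14 to -0.76). Transcription factors had a median of -0.06, and 0 of 14 were past 2-fold either way. Without the 3 mixed control cells the median was -0.15, and 1 of 14 was past 2-fold lower in GA (background 2.33%).

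**Figure D4:**
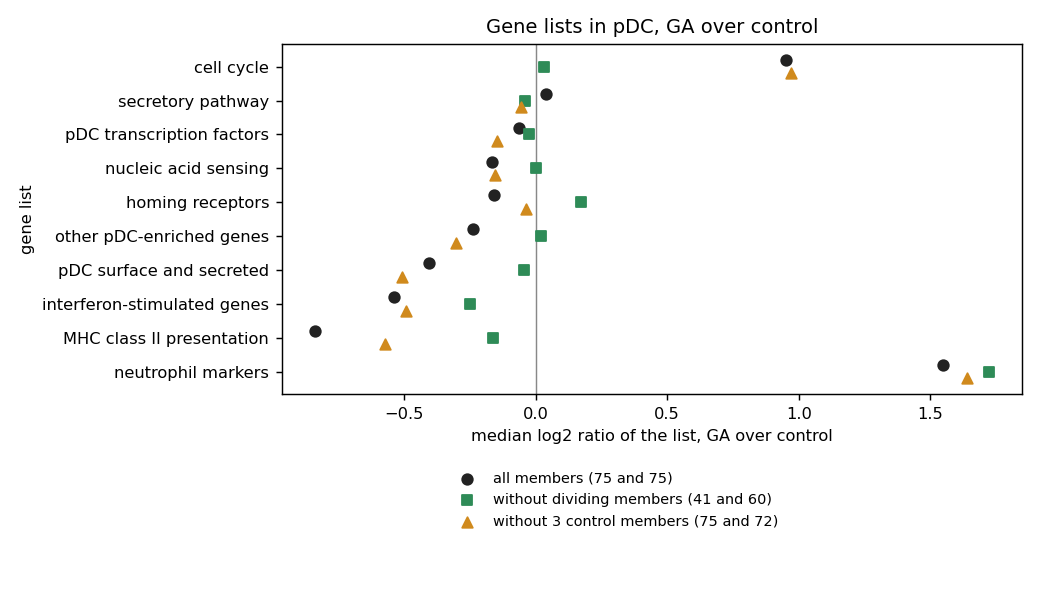
Median log2 ratio of GA over control (horizontal axis) for 10 gene lists (vertical axis), over all pDC (circles), without dividing pDC (squares) and without the 3 mixed control cells (triangles). The cell cycle median goes from 0.95 over 18 genes to 0.03 over 1 gene, pDC surface and secreted from -0.40 to -0.04 and MHC class II from -0.84 to -0.16 when dividing pDC are left out, while neutrophil markers stay above 1 (1.55, 1.72 and 1.64).

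No interferon was detected. All 18 type I, II and III interferon genes listed gave 0 UMIs in both libraries, which allows up to 2.56 CPM for a gene in GA and 3.06 in control. The sensing machinery was present: Tlr7 in 41 and 43 cells at 61.4 and 85.7 CPM, and Unc93b1, which carries the endosomal receptors to their place, in all 75 cells of each library at 587 and 613. Tlr9 gave 2 and 3 UMIs, 1.71 and 3.06 CPM, at or under the floor of 3 counts in each library. Pld4 stood at 337 and 450 CPM and the transporter Slc15a4 at 79.4 and 83.7. Over 15 sensing genes the median log2 ratio was -0.17, and 0 were past 2-fold. Interferon-stimulated genes were mixed. As a list they summed to 2841 and 2999 CPM, near the 3329 and 2594 of all other cells, and 3 were more than 2-fold higher in pDC in both libraries: Ly6e (1654 and 1442 CPM), Trim30a and Stat2. Of all genes 20.3% were past that fold higher. Another 5 of the list were more than 2-fold lower, but the share of all genes past that fold lower was not counted, so this count is not weighed. Isg15 gave 8 and 18 UMIs, Ifit1 0 and 2 and Rsad2 2 and 1, and their levels in Cd209a DC of control were 107, 33.7 and 28.6 CPM against 18.4, 2.04 and 1.02 in control pDC. Of 14 such genes with enough UMIs, 12 were lower in GA with 3 (21.4%) past 2-fold, against 3.14% of the 8699 genes, and a median of -0.54, which was -0.25 without dividing pDC and -0.016 over 6 genes with every pDC thinned to 2000 UMIs. With at least 50 UMIs, 1 of 10 was past 2-fold and the median was -0.36. Irf7, the factor that drives interferon production, gave 43 and 67 UMIs (log2 ratio -0.90, -1.49 to -0.32).

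Il12a, the p35 chain of interleukin-12, was the clearest cytokine. It was found in 41 GA and 28 control pDC at 174 and 111 CPM (log2 ratio 0.65, 0.30 to 1.00), against 6.19 and 3.53 in all other cells, while its partner Il12b was at 0. Ccl4 stood at 131 and 168, Tgfb1 at 251 and 244, and Tnf gave 1 and 8 UMIs. Of 15 homing receptors with at least 20 UMIs, 7 were higher in GA (median -0.16). Of the 15, 1 was past 2-fold higher and 3 past 2-fold lower, against 4.17% and 3.14% of the 8699 genes. Without the 3 mixed control cells 0 of 14 were past 2-fold either way, with a median of -0.04. Without dividing pDC 11 of 12 were higher, against 51.7% of the 6754 genes with at least 20 UMIs there, and 1 was past 2-fold higher (background 2.4%). The median of 0.17 was small, but its sign had turned. Selplg (921 and 857) and Itga4 (259 and 250) had close levels, whereas Ccr2 stood at 62.3 and 134 and S1pr1 gave 1 UMI in each library. Flt3, the growth factor receptor of dendritic cell precursors, was found in 74 and 72 cells at 368 and 333. The secretory genes, abundant in antibody- and interferon-secreting cells, had a median log2 ratio of 0.04 with 0 of 17 past 2-fold. Xbp1 stood at 188 and 246 and Hsp90b1 at 797 and 739 CPM.

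Neutrophil transcripts were spread thinly over the GA pDC. S100a9 was found in 74 of 75 GA and 43 of 75 control pDC at 236 and 73.5 CPM, and S100a8 in 68 and 34 at 180 and 59.2, with log2 ratios of 1.68 and 1.61. These are genes of the selection rule. Granule genes that the rule did not use behaved alike: Ngp gave 45 and 11 UMIs in 35 and 9 cells, Camp 42 and 12 in 29 and 11, Retnlg 37 and 6 in 27 and 5, and Ly6g gave 0. All other cells of the GA library held S100a9 at 39195 CPM and those of control at 10836. Over 14 neutrophil markers the summed level in pDC was 233 and 312 CPM, with Lyz2 the most abundant, and 5 of the 7 with enough UMIs were higher in GA. Without the 3 mixed control cells the summed level in control was 134. The part of neutrophil RNA in the other results was not tested.

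Several of the largest ratios rested on 1 cell. Among the 10 lowest ratios, Nrg1 (1 and 114 UMIs, log2 ratio -7.09), Lyz2 (54 and 229, -2.34) and Cebpb (62 and 144, -1.47) took 95.6%, 73.8% and 67.4% of their control UMIs from the first mixed cell, and without the 3 cells Lyz2 had a ratio of -0.49 (-1.05 to 0.08) and Cebpb 0.13, while Nrg1 gave 1 and 0 UMIs. The first mixed cell was set apart by its own Lyz2 count, so the Lyz2 ratio without it follows from that choice. Igkc (52 and 174 UMIs, -2.00) took 43.1% from the B cell marked cell and had a ratio of -1.33 without the 3 cells. Auts2 was higher in GA (566 and 182 CPM, 1.64), with 40.4% of its GA UMIs in 1 cell, and Nos1ap, found in 39 and 17 cells, stood at 104 and 33.7 (1.63). Ptafr, Slfn2 and Slc7a6os, found in 24 and 33, 20 and 28, and 18 and 35 cells, had ratios of -1.49, -1.42 and -1.39, and Slfn2 of -0.80 without the 3 mixed cells.

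Hedgehog pathway genes, which the study followed in bone repair, summed to 58.9 and 63.3 CPM in pDC against 66.4 and 117 in all other cells and 13.5 and 20.4 in Cd209a DC. Of the 11 genes listed, Ptch1 and Sufu were more than 2-fold higher in pDC than in all other cells in both libraries. Over all 6180 genes, 20.3% were past that fold. The receptor Ptch1 gave 28 and 24 UMIs in 24 and 18 cells and the inhibitor Sufu 36 and 38, while the ligands Shh, Ihh and Dhh and the factors Gli1, Gli2 and Gli3 gave 0. Smo gave 5 UMIs in GA and 0 in control.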

How the data were processed

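Both libraries were deposited as filtered 10x matrices of whole UMI counts per gene and cell. Per the labels, the authors used Cell Ranger with mm10, and the file headers name version 7.0.1, so the counts were neither normalized nor corrected for free RNA. pDC, dividing cells and comparison classes were set by UMI limits on the deposited counts, with numpy 2.4.6, scipy 1.17.1 and pandas 2.3.3 in Python 3.11.15. Counts were summed over the pDC of a library and divided by their total. Log2 ratios have exact conditional binomial 95% intervals and shares Clopper-Pearson intervals. These were checked on simulated counts. With 1 library per condition, called means past 2-fold. Genes needed 50 UMIs over all pDC, and list medians 20. Doublets were kept: Scrublet (scanpy 1.11.5) called 0.150% of GA and 0.482% of control barcodes, too few to have worked, so the 695 and 608 highest scores (10 and 6 pDC) were left out as an alternative. The text names listed genes, the 10 highest and 10 lowest ratios (at least 100 UMIs), the 20 highest folds over other cells and the 10 most abundant. The cells, lists and rules were chosen with earlier results of these data known. Other alternatives changed depth, limits, denominators, scaling and cells. Leaving the rule genes out of the surface list was added after seeing the data. Some genes of the lists are not reported here.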

Additional observations from a re-analysis of the deposited data

How the results depend on the processing

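A first setting thinned every cell to 2000 UMIs, lowered the Siglech and Bst2 limits and left out cells with fewer UMIs. There the share of pDC was 0.556% in GA and 0.726% in control. It was 1.33% in control among Ptprc cells, and 1.76% and 1.24% (ratio 1.42) among cells under the S100 limit. Genes more than 2-fold higher in GA numbered 29 without dividing pDC, 29 without these and the 3 mixed control cells, 10 with thinning, 363 at a minimum of 20 UMIs and 17 at 200. Genes more than 2-fold lower numbered 22, 21, 6, 273 and 12 in the same order. They numbered 48 by the mean of per-cell levels, 37 without the 3 deepest pDC per library and 42 without the 3 mixed control cells, an alternative chosen after seeing the data. Without dividing pDC the list medians were 0.030 for cell cycle (1 gene), -0.16 for MHC class II and -0.044 for pDC surface genes, and without the 3 mixed cells as well -0.010, -0.11 and -0.057. The cell cycle median was 1.26 without the highest doublet scores, and the interferon-stimulated median -0.016 with thinning. Without dividing pDC the ratio of Ccr9 was 0.035, Siglech 0.16, Hist1h1b -1.19 and Cebpb 0.62, and without the mixed cells as well 0.022, 0.16, -1.23 and 0.57, with H2-Eb1 at 0.030. Cebpb was also 0.069 without the 3 deepest pDC, 0.25 without the highest doublet scores and 0.13 without the mixed control cells. Fewer cells or UMIs leave fewer genes over the minimum, and the cause of the other shifts was not tested. Of 297 values for 31 named genes, 206 stayed close to the reported value, 79 moved and 12 reversed, and 283 kept their sign. With 1 library per condition no library could be left out. No paired analysis was possible because each condition had 1 library.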

Other observations

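Some pDC transcripts are better known from other cells. Pecam1, an adhesion protein of endothelium and leukocytes, was found in 65 GA and 61 control pDC with 451 and 300 UMIs (log2 ratio 0.33, 95% interval for counting error 0.12 to 0.55). Cdh5, the endothelial cadherin, was found in 43 and 33 pDC with 84 and 48 UMIs (0.55, 0.02 to 1.09), while Emcn, a further endothelial marker, gave 0. Of the progenitor markers, Adgrg1 gave 37 UMIs in 15 GA pDC and 4 in 4 control pDC (2.95, 1.47 to 4.90), and Kit gave 30 UMIs in 14 and 18 in 5 (0.48, -0.41 to 1.41). Without the 3 mixed control cells Kit gave 4 control UMIs (2.47, 0.97 to 4.44), and the median of the 4 progenitor genes with at least 20 UMIs went from 0.34 to 1.56. Of 16 dissociation and immediate early genes with at least 20 UMIs, 11 were higher in GA with a median log2 ratio of 0.14, where 54.4% of all 8699 genes were higher. In pDC that were not dividing 12 of 15 were higher with a median of 0.45, and in dividing pDC 7 of 15 with a median of -0.01. Among them Jun gave 186 and 77 UMIs (1.01, 0.62 to 1.42) and Fos 284 and 276 (-0.22, -0.46 to 0.03). These values come from 1 library per condition and were not tested.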
